A study of Mus musculus with 6 samples.

Results

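The S100 and annexin genes described here are 10 genes of calcium-linked proteins in lung endothelial cells (ECs): S100a4, S100a6, S100a8, S100a9, S100a10, S100a11, Anxa1, Anxa2, Anxa3 and Anxa8. They were listed by symbol, the counts of each symbol were summed, and all 10 were found among 24063 symbols. RNA was sequenced from ECs that anti-CD31 beads had pulled from the lungs of male C57BL6 mice. The labels give the mice as 8 weeks old. The study's methods differ and give an older age at surgery. The sham group had surgery without lung removal. The PNX group had unilateral pneumonectomy, after which the remaining lung grows, and was taken at day 7. Each group had 3 libraries, each pooled from 2 mice, and no mutant allele or drug was part of these groups. The comparison asks which of these genes differ in the CD31 fraction of the regrowing lung.

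S100 proteins are small EF-hand proteins that mostly work as dimers and bind their targets when calcium rises. S100A8 and S100A9 form calprotectin, which is abundant in neutrophils and monocytes and is released as an alarmin sensed through Tlr4 and Ager (RAGE). Annexins bind phospholipid membranes in the presence of calcium. S100A10, which has lost calcium binding, sits in a complex with annexin A2 that gathers plasminogen and its activators on the endothelial surface, and S100A11 is a partner of annexin A1. In bulk RNA of a bead-isolated fraction, fewer cells of a type and less RNA per cell cannot be told apart.

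On GRCm38 with the GENCODE vM21 annotation, the 6 S100 genes lie on chromosome 3 and each has 3 exons in the counted transcript. S100a4 (90603771 to 90606045, plus strand) and S100a6 (90612882 to 90624181, plus) precede S100a8 (90668978 to 90670035, plus) and S100a9 (90692632 to 90695721, minus). S100a11 (93520488 to 93526287, plus) and S100a10 (93555080 to 93564643, plus) start 2825 kb further on. The annexins are spread: Anxa1 is on chromosome 19 (20373428 to 20390944, minus), Anxa2 on chromosome 9 (69453620 to 69491795, plus), Anxa3 on chromosome 5 (96793339 to 96845966, plus) and Anxa8 on chromosome 14 (34085981 to 34100571, plus). Anxa1, Anxa2 and Anxa3 have 13 exons and Anxa8 has 12. S100a4 shares bases with the coding gene Gm42674 on the same strand, Anxa2 with the antisense gene Gm16144 and Mir3109, Anxa8 with A630023A22Rik on the opposite strand, Anxa1 with 1500015L24Rik on the opposite strand and Anxa3 with Gm42603. Whether counting used strand is not given in the sources used here, so reads of these overlapping pairs may be mixed.

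The promoter stretches below show the alarmin pair beside S100a11 and Anxa2, whose levels behaved differently across the libraries. They are RefSeq sequences (GRCm38.p6) on the strand of each gene, 150 bases long, and stop where annotated exons begin. Promoters of 8 of the 10 genes were in the table used, without S100a10 and Anxa3. Capitals mark the letters searched: TATAAA (the TATA box, gene strand), TTNNGNAA (C/EBP), TGANTCA (AP-1) and GAGGAA (the PU.1 core), the last 3 on both strands and with no overlap between the matches found.
S100a8, chr3:90668828-90668977, plus strand: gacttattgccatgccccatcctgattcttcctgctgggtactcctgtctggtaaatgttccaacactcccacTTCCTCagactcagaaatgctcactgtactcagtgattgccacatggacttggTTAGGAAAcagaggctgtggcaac
S100a9, chr3:90695722-90695871, minus strand: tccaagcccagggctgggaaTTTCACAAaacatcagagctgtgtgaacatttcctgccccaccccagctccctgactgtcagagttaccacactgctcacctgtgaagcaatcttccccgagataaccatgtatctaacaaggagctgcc
S100a11, chr3:93520338-93520487, plus strand: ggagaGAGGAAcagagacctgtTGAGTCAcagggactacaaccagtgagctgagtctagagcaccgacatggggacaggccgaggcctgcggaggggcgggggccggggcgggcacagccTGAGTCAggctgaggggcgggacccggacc
Anxa2, chr9:69453470-69453619, plus strand: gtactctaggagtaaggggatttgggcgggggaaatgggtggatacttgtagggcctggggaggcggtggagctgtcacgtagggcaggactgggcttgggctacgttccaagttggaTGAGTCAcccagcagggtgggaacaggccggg
Positions are counted from the RefSeq start, over windows of 250 bases before and 50 after it. S100a8 held the PU.1 core at -170 and -36, C/EBP at -117 and TATAAA at -30, and S100a9 held C/EBP at -236 and -130 and TATAAA at 1. S100a11 held AP-1 at -136 and -38 and the PU.1 core at -153. Anxa2 held AP-1 at -95 and TATAAA at -17. S100a4 held TATAAA at -31 and the PU.1 core at 20, and Anxa1 the PU.1 core at -227, C/EBP at -143 and TATAAA at -32. Of all 32851 promoter windows of this length, 40.7% held C/EBP, 28.3% the PU.1 core, 8.32% TATAAA and 7.81% AP-1. No match was found in the windows of S100a6 and Anxa8. These matches are descriptions of the letters, and no binding was measured.

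Total counts per library were 33374216 to 81282871 in sham and 29526989 to 74382176 in PNX, and the 10 genes had 1025 to 41244 counts in a library. Replicates 1 and 2 of each group, which the labels mark as re-used, differed little more than counting error (chi-square per degree of freedom 1.57 and 1.75, against 67.9 to 86.4 for pairs with replicate 3). They were summed and counted as 1 sample, which leaves 2 samples per group. The re-used sample is called the earlier deposit here and replicate 3 the later, names inferred from that mark. Nothing in the labels says what differed between the deposits. The labelled cell type was present: the 10 endothelial markers summed to 8814 to 11872 CPM (counts scaled to library size by TMM) in the libraries, with Eng and Pecam1 at the top.

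No gene of the 10 passed the study's thresholds (adjusted p below 0.01 together with a log2 fold change beyond 1 in size) in edgeR's quasi-likelihood test on the 4 samples, where 0% of 16598 genes passed. At adjusted p under 0.05 with any fold change the same test gave 0% higher after PNX, and 4 members had an unadjusted p under 0.05 on the higher side, against 7.54% of the genes tested. In limma-voom on the 4 samples the count of members was also 0 at either threshold. The lowest limma-voom adjusted p of any gene was 0.0612. At an unadjusted p under 0.05 that fit had 4 members, beside 2174 of 16598 genes in either direction. With the deposit as a replicate block, 7 of the 10 genes were higher after PNX at an edgeR adjusted p under 0.05, against 11.5% of all genes: S100a4, S100a6, S100a10, S100a11, Anxa1, Anxa2 and Anxa8. The blocked fit leaves 1 residual degree of freedom (2 without the block), so its standard errors lean on variance estimated across genes. The same fit put 0 of the 10 and 5.12% of all genes past the study's thresholds, since no member had a log2 fold change beyond 1 in size. When the 6 libraries were entered singly without the block, S100a6, S100a10, Anxa1 and Anxa2 passed at 0.05 (8.09% of the genes were higher at that level), and 0 of the 10 against 2.51% passed the study's thresholds. That entry counts replicates 1 and 2 as separate samples though they differed little more than counting error, so its p-values may be too small. DESeq2 on the 4 samples passed S100a10 at 0.05 (adjusted p = 0.0403, against 3.86% of the genes higher) and 0 members at the study's thresholds (3.35% of the genes). The median log2 fold change of the 10 genes was 0.53, beside -0.01 over all genes tested. The 2-against-2 design allows no exact permutation p below 0.333, so none is given for single genes.

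**Figure D1:**
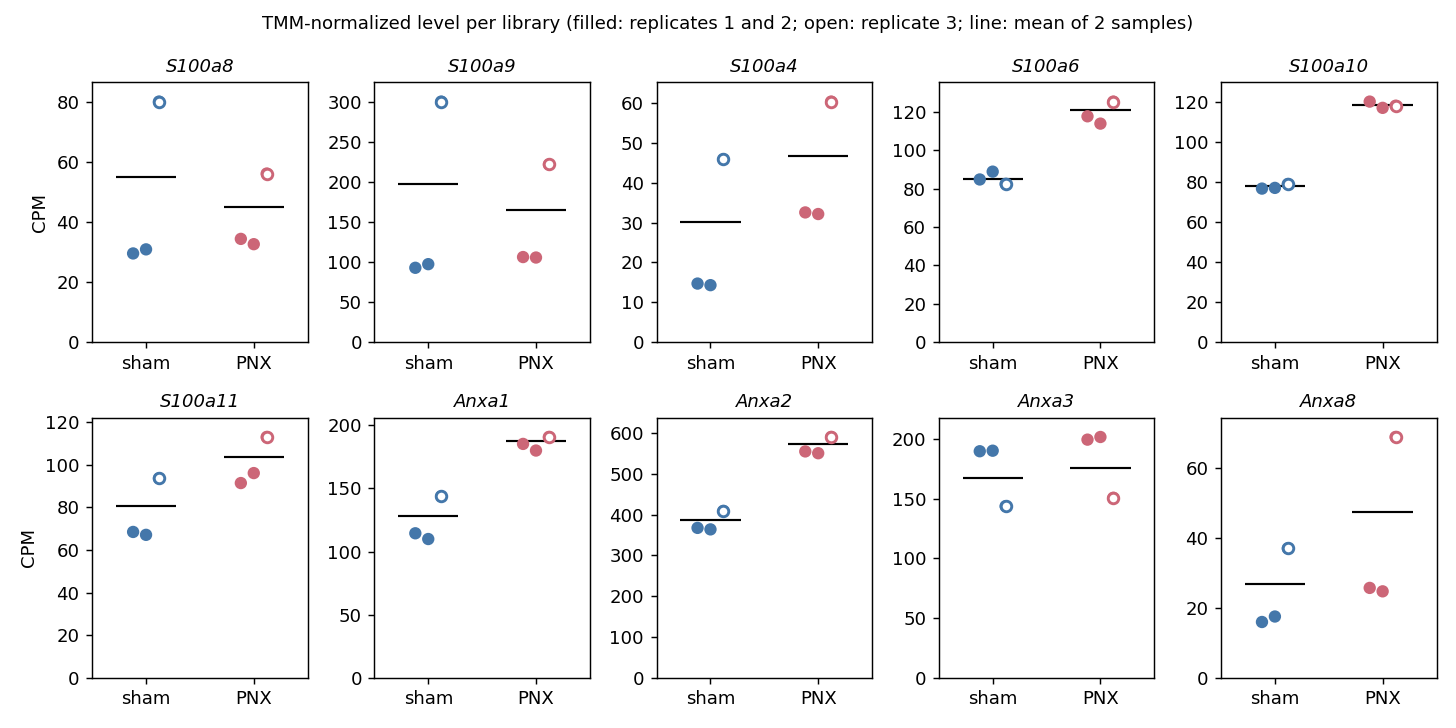
TMM-scaled CPM of the 10 genes in each library of the sham and PNX groups. Filled points are replicates 1 and 2 (earlier deposit), open points replicate 3 (later deposit) and the line is the mean of the 2 samples per group. The 3 PNX libraries lie above the 3 sham libraries for S100a6, S100a10, Anxa1 and Anxa2, while S100a8, S100a9, S100a4 and Anxa8 are separated mainly by deposit.

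All 3 PNX libraries lay above all 3 sham libraries for 4 of the 10 genes, against 18.8% of the genes tested, and all 3 lay below for 0, against 17.9%. Within both deposits 8 of the 10 genes were higher after PNX, against 36.0% of all genes. The 2 others, S100a8 and S100a9, pointed in opposite directions in the 2 deposits, as did 24.7% of all genes. The later deposit exceeded the earlier by more than 1.5-fold in both groups for S100a4, S100a8, S100a9 and Anxa8, 4 of 10 against 9.07% of all genes.

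The alarmin genes S100a8 and S100a9 did not pass the test in either direction, and their levels followed the deposit more than the surgery. S100a8 was at 29.5, 30.9 and 80.0 CPM in sham replicates 1, 2 and 3 and at 34.4, 32.6 and 56.1 CPM in PNX. The third replicate was the highest of each group, and the groups overlapped. Its mean was 54.9 ± 34.5 CPM in sham and 45.0 ± 16.5 CPM in PNX (SD, n = 2), a log2 fold change of -0.29 (SE 0.52, edgeR adjusted p = 0.895), and -0.17 (SE 0.14, adjusted p = 0.421) with the replicate block. S100a9 was at 93.0, 97.5 and 300.5 CPM in the sham libraries and at 106, 106 and 222 CPM in the PNX libraries. The 6 libraries ranked in the same order as for S100a8, with sham replicate 3 the highest. Its log2 fold change was -0.26 (SE 0.64, edgeR adjusted p = 0.929), and -0.14 (SE 0.13, adjusted p = 0.497) with the block. S100a9 has 2 transcripts whose counts differ by at most 2, so the same reads may be counted on each transcript or be divided between them. Its summed CPM and its TPM depend on which, and its fold change does not.

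Taken deposit by deposit, the alarmins were slightly higher after PNX in the earlier libraries and lower in the later ones. The PNX over sham ratio of S100a8 was 1.09 in the earlier deposit (exact 95% interval of counting error 1.05 to 1.14) and 0.715 in the later deposit (0.672 to 0.760). For S100a9, counted on a single transcript, it was 1.10 (1.06 to 1.13) and 0.753 (0.721 to 0.787). Neither interval holds the spread between mice, and the difference between deposits has no replicate. The later deposit exceeded the earlier by 2.60-fold in sham and 1.70-fold in PNX for S100a8, and by 3.09-fold and 2.13-fold for S100a9. Without sham replicate 3 the log2 fold changes turned to 0.56 and 0.78, and without PNX replicate 3 they were -0.71 and -0.90. The sign of both alarmins in this comparison thus depended on which later library entered.

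**Figure D2:**
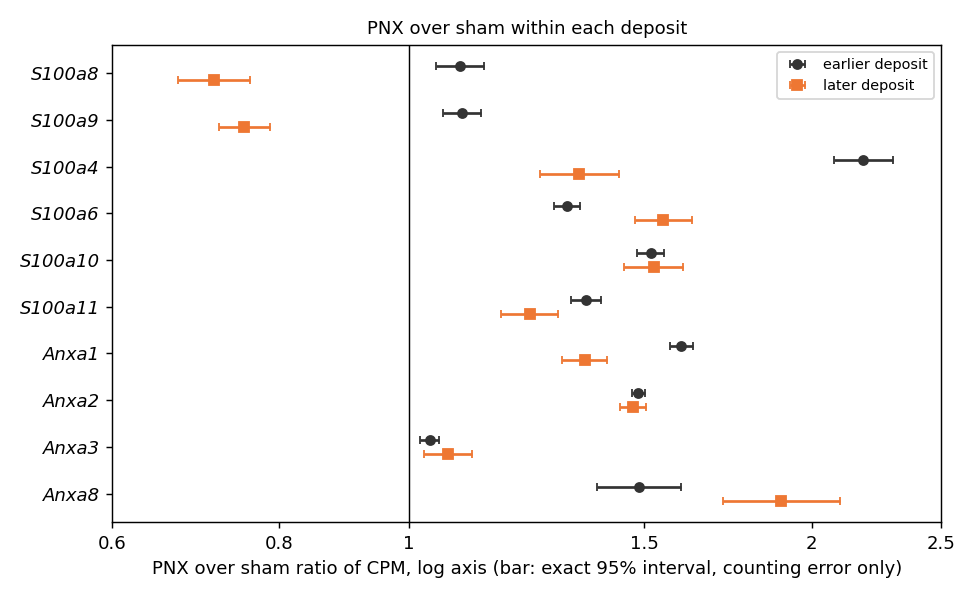
PNX over sham ratio of CPM within the earlier deposit (circles) and within the later deposit (squares) for the 10 genes, on a log axis with a line at 1. Bars are exact 95% intervals that cover counting error only. S100a8 (1.09 and 0.715) and S100a9 (1.10 and 0.753) lie on both sides of 1, and S100a10 lies at 1.52 in both deposits.

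The summed level of neutrophil markers, like the alarmins, was higher in the later deposit of both groups, while single markers differed. Of 15 neutrophil genes on the list, 14 were matched (the symbol Ly6g was not) and all 14 were tested. Their summed level was 213, 212 and 555 CPM in the sham libraries and 239, 236 and 557 CPM in the PNX libraries, so replicate 3 was high in both groups. None was at 0 in every library. The granule gene Elane stayed under 1 CPM (0.223 to 0.872), Camp was at 0.996 to 5.47 CPM, and Csf3r, the receptor for granulocyte colony-stimulating factor, was the most abundant at 98.2, 99.5 and 274 CPM in the sham libraries and 111, 109.6 and 251 CPM in the PNX libraries. The sum rests mostly on Csf3r and Trem1. The later deposit exceeded the earlier for 13 of the 14 in sham and 14 in PNX, with Prtn3 (0.690) the exception in sham and Mpo nearly level there (1.10). The granule genes Camp and Ngp were 1.47-fold and 1.76-fold higher in the later deposit in sham and 5.47-fold and 5.66-fold higher in PNX, whereas the alarmins had the larger deposit difference in sham. In the PNX over sham comparison the sum was at a ratio of 1.10 in the earlier deposit and 1.02 in the later. In the later deposit, where the alarmins were lower after PNX, the ratio was 0.935 for Csf3r, 0.906 for Trem1 and 0.727 for Cxcr2, but 2.47 for Camp, 2.503 for Ngp, 2.79 for Mpo, 2.14 for Elane and 6.71 for Prtn3. In the earlier deposit Camp (0.665), Ngp (0.780) and Mpo (0.830) were below 1. Of the 14, 9 had a log2 fold change above 0. With the block 3 were higher at an edgeR adjusted p under 0.05, against 11.5% of all genes: Prtn3 (log2 fold change 2.19), Mmp8 (1.00) and Retnlg (0.37). Monocyte markers (6 of 6 tested, 4 higher with the block, against the same 11.5%) summed to 1031 to 2045 CPM in sham and 2605 to 2919 CPM in PNX. Their sum rests mostly on Chil3, at 911 CPM in sham replicate 1. With the block the log2 fold changes of the 6 ranged from -0.03 to 2.45. The part of these cells in the alarmin levels was not tested.

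The RNA levels of Anxa2 and its partner gene S100a10 were about equally higher after PNX in both deposits. S100a10 was at 76.8, 77.2 and 79.1 CPM in the sham libraries and at 120.3, 117 and 118 CPM in the PNX libraries. The libraries of a group lay close together and the groups did not overlap. The mean was 78.2 ± 0.29 CPM in sham and 119 ± 0.89 CPM in PNX (SD, n = 2), which is 1.52-fold higher with a log2 fold change of 0.60 (SE 0.12, edgeR adjusted p = 0.161 without the block). With the block the log2 fold change was again 0.60 (SE 0.078, edgeR adjusted p = 0.00228), and the ratio was 1.52 in each deposit. Leaving out any library kept the log2 fold change between 0.59 and 0.62. The 2 samples of a group differed by no more than counting error for S100a10 (later over earlier 1.01 in sham, exact 95% interval 0.964 to 1.05, and 1.01 in PNX, 0.974 to 1.05).

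Anxa2 was at 367, 364 and 409 CPM in the sham libraries and at 555, 551 and 590.4 CPM in the PNX libraries. All PNX libraries were above all sham libraries, and replicate 3 was the highest of each group. The mean went from 388 ± 24.7 CPM to 573 ± 33.0 CPM (SD, n = 2), 1.48-fold higher, with a log2 fold change of 0.56 (SE 0.15, edgeR adjusted p = 0.242) and, with the block, 0.56 (SE 0.097, edgeR adjusted p = 0.00722). Its ratio was 1.48 in the earlier deposit and 1.47 in the later, and leaving out any library kept the log2 fold change between 0.51 and 0.64. The ratio of Anxa2 to S100a10 in TPM, a unit corrected for transcript length, was 2.26, 2.23 and 2.45 in sham and 2.18, 2.22 and 2.36 in PNX. It varied by 1.12-fold over the 6 libraries, while the groups differed by 1.48-fold for Anxa2 and 1.52-fold for S100a10.

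Anxa1, a regulator of inflammation that acts through Fpr2, and its partner gene S100a11 were also higher after PNX, S100a11 with overlapping groups. Anxa1 was at 114, 109.9 and 144 CPM in the sham libraries and at 185, 180.05 and 191 CPM in the PNX libraries, without overlap. Its log2 fold change was 0.55 (SE 0.17, edgeR adjusted p = 0.290), and 0.56 (SE 0.093, edgeR adjusted p = 0.00661) with the block. S100a11 was at 68.5, 67.1 and 93.7 CPM in the sham libraries and at 91.5, 96.1 and 113 CPM in the PNX libraries, so sham replicate 3 lay between PNX replicates 1 and 2. Its log2 fold change was 0.36 (SE 0.21, edgeR adjusted p = 0.586), and 0.37 (SE 0.082, edgeR adjusted p = 0.0195) with the block. The 6-library fit without a block did not pass S100a11 (edgeR adjusted p = 0.160).

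S100a6 (calcyclin), which binds Cacybp and several annexins, was at 84.8, 88.9 and 82.5 CPM in the sham libraries and at 118, 114 and 125 CPM in the PNX libraries. The groups did not overlap, and replicate 3 was the lowest in sham and the highest in PNX. The log2 fold change was 0.51 (SE 0.13, edgeR adjusted p = 0.235), and 0.51 (SE 0.090, edgeR adjusted p = 0.00817) with the block. Its ratio was 1.31 in the earlier deposit and 1.55 in the later.

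**Figure D3:**
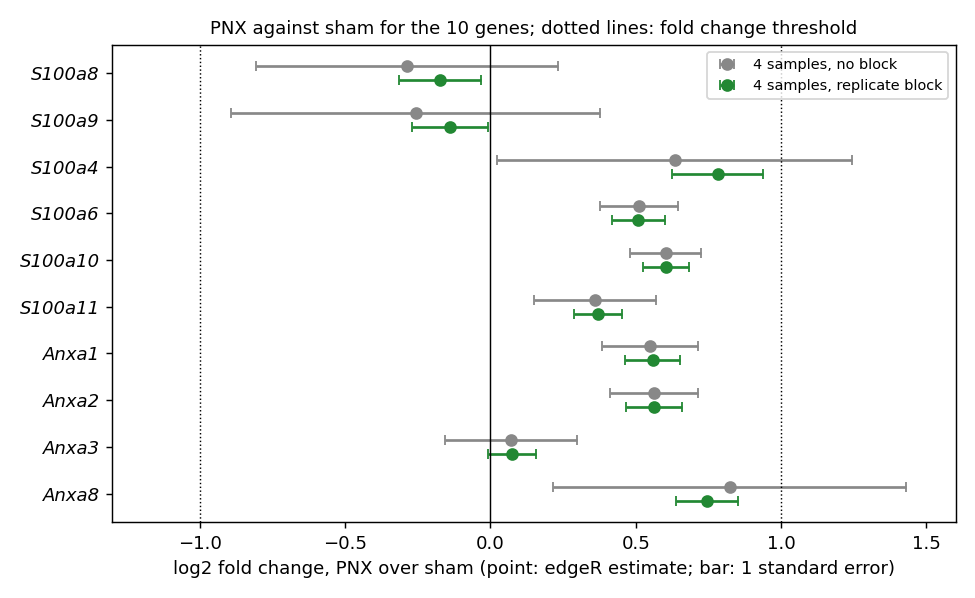
Log2 fold change of PNX over sham for the 10 genes from edgeR on the 4 samples, without the replicate block (grey) and with it (green), with bars of 1 standard error and dotted lines at the study's fold change threshold. With the block the standard errors shrink to 0.078 to 0.16 while the estimates of S100a10, Anxa2 and S100a6 stay within 0.01 of those without it.

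S100a4, also known as fibroblast-specific protein 1 and a binding partner of non-muscle myosin, showed the largest ratio of the 10 in the earlier deposit and a large difference between deposits. It was at 14.7, 14.3 and 45.8 CPM in the sham libraries and at 32.5, 32.1 and 60.3 CPM in the PNX libraries. The PNX value was higher within each deposit, but sham replicate 3 exceeded PNX replicates 1 and 2. The ratio was 2.19 in the earlier deposit (exact 95% interval 2.08 to 2.30) and 1.34 in the later (1.25 to 1.44). Its log2 fold change was 0.63 (SE 0.61, edgeR adjusted p = 0.766), and 0.78 (SE 0.16, edgeR adjusted p = 0.0131) with the block. Without PNX replicate 1 the blocked test gave an edgeR adjusted p of 0.0503, and the fit without a block ranged from 0.11 without PNX replicate 3 to 1.67 without sham replicate 3.

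Anxa8, an annexin of late endosomes, was the lowest expressed of the 10 per transcript length. It was at 15.9, 17.5 and 36.9 CPM in the sham libraries and at 25.6, 24.7 and 68.8 CPM in the PNX libraries. As for S100a4, replicate 3 was high in both groups, and sham replicate 3 exceeded PNX replicates 1 and 2. The ratio was 1.49 in the earlier deposit and 1.90 in the later, a rise where that of S100a4 fell. Its log2 fold change was 0.82 (SE 0.61, edgeR adjusted p = 0.679), and 0.74 (SE 0.11, edgeR adjusted p = 0.00345) with the block. Without PNX replicate 3 and without the block it was -0.09, so that library carries the direction there. Anxa8 has 2 transcripts whose counts differ by at most 1, with the same doubt about its level, and its ratios by deposit use a single transcript.

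Anxa3, a membrane-binding annexin, did not pass the test at adjusted p under 0.05 in any fit run. It was at 189.9, 190.3 and 144 CPM in the sham libraries and at 199.6, 202 and 151 CPM in the PNX libraries, with replicate 3 the lowest of each group. The log2 fold change was 0.07 (SE 0.23, edgeR adjusted p = 0.947), and 0.07 (SE 0.083, edgeR adjusted p = 0.571) with the block. Among the 10 genes Anxa3 was the one whose level was lower in the later deposit of both groups, by a ratio of 0.740 in sham and 0.764 in PNX.

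**Figure D4:**
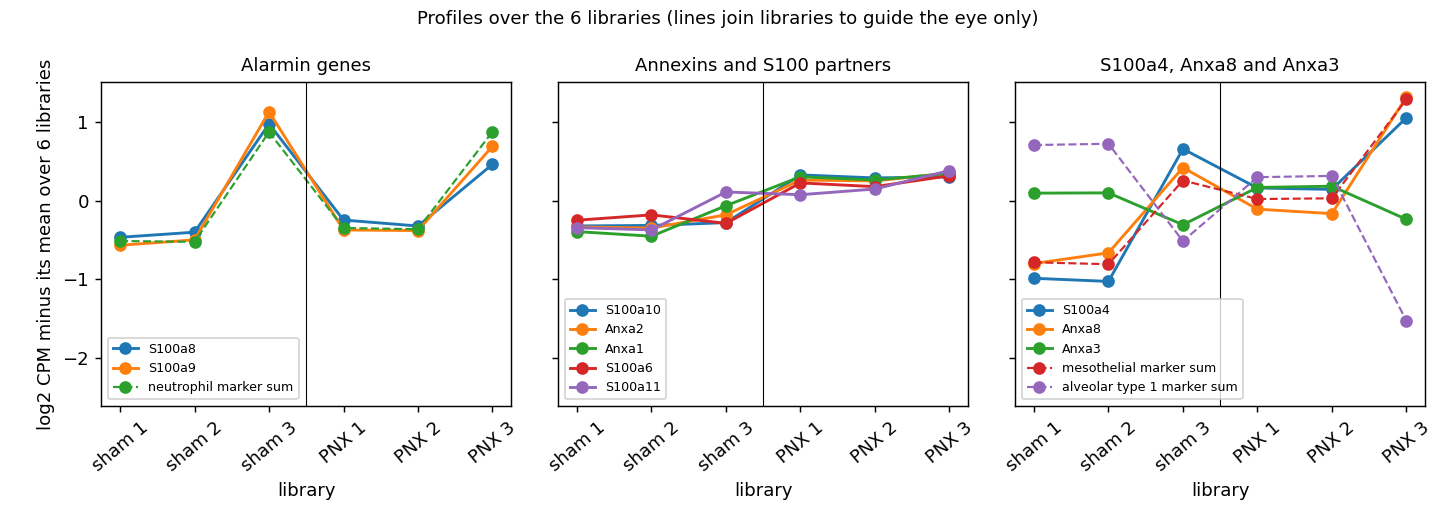
Log2 CPM of the 10 genes in the 6 libraries, each centred on its own mean, with the summed CPM of marker lists as dashed lines. The alarmin genes and the neutrophil sum peak in replicate 3 of each group, and S100a4, Anxa8 and the mesothelial sum are highest in PNX replicate 3. From the earlier to the later deposit the PNX over sham ratio fell for S100a4 (2.19 to 1.34). It rose for Anxa8 (1.49 to 1.90) and the mesothelial sum (1.73 to 2.08). The genes of the middle panel split by group except S100a11, whose groups overlap.

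Several marker lists of other cells differed between the groups or deposits beside these genes. The 8 mesothelial markers, led by Msln, summed to 261, 257 and 536 CPM in sham and to 455, 458 and 1093 CPM in PNX, 8 of 8 had a log2 fold change above 0, and 7 were higher with the block at an edgeR adjusted p under 0.05. The 8 fibroblast markers summed to 1091 to 1283 CPM in sham and 3433 to 4879 CPM in PNX, and 5 of 8 were higher and 1 lower with the block at that threshold, which also holds for the lists that follow (11.5% of all genes were higher and 10.1% lower). The macrophage markers (8 of 10 matched, without Adgre1 and Siglecf) summed to 2299 to 4240 CPM in sham and 3119 to 4133 CPM in PNX, with 7 of 8 higher. That sum rests mostly on Lyz2 (1985 CPM in sham replicate 1), at a log2 fold change of -0.0069 with the block. The 7 higher markers were at 0.42 to 2.63. The endothelial sum was 9959 to 11872 CPM in sham and 8814 to 9783 CPM in PNX, with 2 of 10 lower and 0 higher. The alveolar type 1 sum was 2249.6 to 5292 CPM in sham and 1117 to 3990 CPM in PNX (4 lower and 1 higher of 6), the alveolar type 2 sum 4942 to 5338 and 1747 to 3177 CPM (6 of 6 lower), and the club airway sum 2473 to 4519.9 and 1152 to 1204 CPM (5 of 5 lower). T cell markers summed to 83.2 to 141 CPM in sham and 71.5 to 115 CPM in PNX (4 of 6 lower), and B cell markers to 84.4 to 100.3 and 46.8 to 51.4 CPM (5 of 5 lower). No marker of any list was at 0 in every library. From the earlier to the later deposit the PNX over sham ratio of S100a4 fell from 2.19 to 1.34. That of the monocyte sum (2.74 to 1.30) and the macrophage sum (1.33 to 0.994) also fell. The ratio of the mesothelial sum (1.73 to 2.08) and the fibroblast sum (3.10 to 3.88) rose. The part of other cells in the levels of S100a4, S100a6, Anxa8 and the other members was not tested.

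Per transcript length, Anxa2 was the most abundant of the 10 in both groups, at 708 ± 48.2 TPM in sham and 1043 ± 66.5 TPM in PNX (SD, n = 2). In sham it was followed by S100a9 (472 ± 343 TPM), S100a11 (402 ± 86.7 TPM), S100a8 (352 ± 222 TPM), S100a10 (302 ± 2.40 TPM), S100a6 (296 ± 14.02 TPM), Anxa3 (263 ± 54.4 TPM), Anxa1 (230 ± 37.6 TPM), S100a4 (151 ± 110 TPM) and Anxa8 (17.9 ± 9.38 TPM). The TPM of S100a9 and Anxa8 is that of a single transcript and would be too low if reads were divided between transcripts. Neighbours in that order overlapped except S100a4 and Anxa8. In PNX the order was Anxa2, S100a11 (515 ± 76.7 TPM), S100a10 (457 ± 6.48 TPM), S100a6 (420.2 ± 30.8 TPM), S100a9 (394 ± 203 TPM), Anxa1 (335 ± 16.1 TPM), S100a8 (287 ± 107 TPM), Anxa3 (275 ± 50.6 TPM), S100a4 (233 ± 103 TPM) and Anxa8 (31.5 ± 21.1 TPM). There Anxa2 and S100a11, S100a10 and S100a6, and S100a4 and Anxa8 did not overlap. By the TPM of a single transcript, S100a9 stood among the upper ranks in sham only through replicate 3, at 715 TPM beside 225 and 236 TPM in the other sham libraries. Its rank in those libraries depends on how reads were counted. S100a8, with 1 transcript, was at 509 TPM in sham replicate 3 beside 191 and 199 TPM.

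Ratios between genes of the same library are given for chosen pairs, with no background of other gene pairs beside them. S100a9 over S100a8 in TPM was 1.18, 1.18 and 1.41 in sham and 1.16, 1.21 and 1.48 in PNX, a spread of 1.28-fold. Anxa2 over S100a6 spread by 1.21-fold, S100a10 over S100a6 by 1.185-fold and Anxa1 over S100a11 by 1.32-fold. Anxa2 over S100a4 was 9.08, 9.24 and 3.24 in sham and 6.20, 6.23 and 3.56 in PNX, a spread of 2.85-fold. By the mean absolute difference of centred log2 CPM over the 6 libraries, among 14280 genes, S100a10 was nearest to Slc39a1 (0.0205), Dcakd (0.0238) and Nme1 (0.0282), and Anxa2 to Man1a (0.0237), Sept10 (0.026) and Rcan1 (0.0261). S100a10 and Anxa2 lay 0.0497 from each other. S100a8 was nearest to Tiam2 (0.0415), Pglyrp1 (0.049) and Bcl2a1d (0.0523), S100a9 to Cx3cr1 (0.049), Gpr141 (0.0498) and Cd74 (0.0545), and the alarmins lay 0.127 apart. These are descriptions over 6 libraries of which replicates 1 and 2 are nearly the same sample.

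The other members of both families did not pass the edgeR test with the block. Of 16 S100 genes 13 passed the filter on low counts (not S100a3, S100a5 and S100z), 8 had a log2 fold change above 0 and 5 below, and the median was 0.10. With the block 4 of the 13 were higher (11.5% of all genes) and 0 lower (10.1%) at an edgeR adjusted p under 0.05. All 4 were among the 10 genes. Of the other S100 genes, S100a1 was at 0.11, S100a14 at 0.05, S100a16 at 0.04 and S100a13 at -0.17 with the block, and none passed. S100g, the vitamin D-dependent calcium binder calbindin-D9k, was at 8.00, 6.92 and 8.26 CPM in the sham libraries and 5.61, 6.08 and 2.21 CPM in the PNX libraries. Its log2 fold change was -0.98 with the block (SE 0.31, edgeR adjusted p = 0.0603). S100a7a and S100b stayed under 1 CPM. Along chromosome 3 the order of the 13 S100 genes there is S100a1, S100a13, S100a14, S100a16, S100a3, S100a4, S100a5, S100a6, S100a7a, S100a8, S100a9, S100a11 and S100a10. The genes passing with the block were thus S100a4 and S100a6 on the near side of the alarmins, and S100a11 and S100a10, 28.8 kb apart, on the far side.

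Of 12 annexins 10 passed the filter (Anxa10 was at 0 in every library and Anxa13 was too low), 9 had a log2 fold change above 0 and 1 below, and the median was 0.19. With the block 3 of the 10 were higher at an edgeR adjusted p under 0.05 (11.5% of all genes), Anxa1, Anxa2 and Anxa8. Anxa6, the large annexin of the plasma membrane, was at 349, 356 and 364 CPM in the sham libraries and 424.5, 430.5 and 415 CPM in the PNX libraries, with a log2 fold change of 0.24 (SE 0.093, edgeR adjusted p = 0.117 with the block, 0.0454 with the 6 libraries). Anxa5 was at 0.16, Anxa7 at 0.15, Anxa9 at 0.15, Anxa4 at 0.07 and Anxa11 at -0.14 with the block, and none of these passed.

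**Figure D5:**
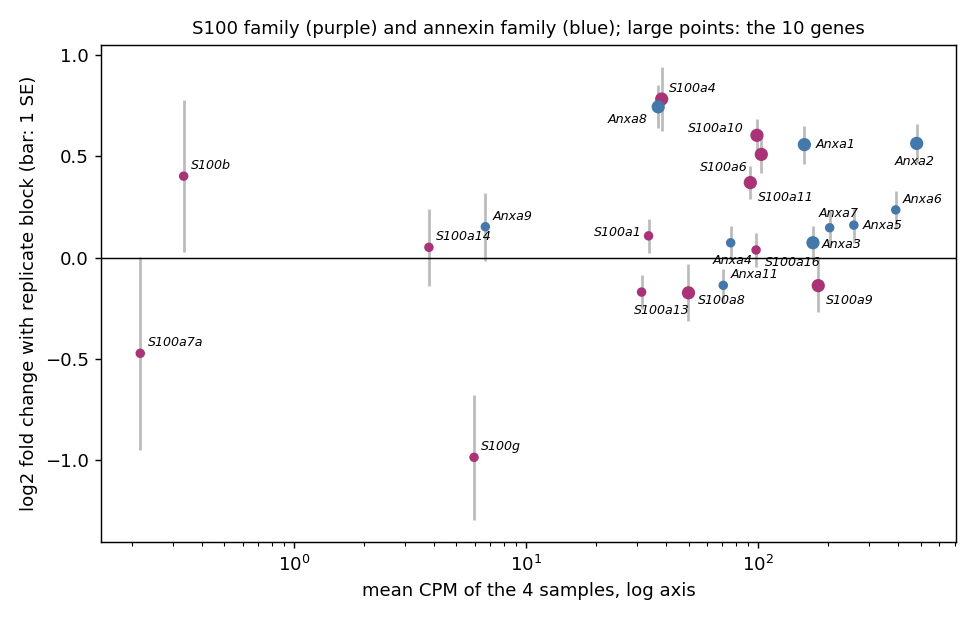
Log2 fold change with the replicate block against the mean CPM of the 4 samples (log axis) for the 13 S100 genes and 10 annexins tested, with bars of 1 standard error and large points for the 10 genes. S100a4 and Anxa8 are highest, S100a8 and S100a9 lie below 0, and the CPM of S100a9 and Anxa8 is summed over 2 transcripts that may share reads.

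Among the receptors for these proteins, 7 of 7 were tested, 3 had a log2 fold change above 0 and 4 below. With the block 2 of the 7 were lower at an edgeR adjusted p under 0.05, against 10.1% of all genes lower in that fit, and 0 were higher. Ager, the receptor RAGE and also an alveolar type 1 marker, was at 3362, 3424 and 1294 CPM in the sham libraries and 2589, 2629 and 436 CPM in the PNX libraries (log2 fold change -0.97, SE 0.25, edgeR adjusted p = 0.0325). PNX replicate 3 was far below the rest, and the groups overlapped. The scavenger receptor Cd36 was at 9593, 9232 and 6870.4 CPM in the sham libraries and 6243, 6246 and 4616 CPM in the PNX libraries (-0.58, SE 0.15, edgeR adjusted p = 0.0318), with all PNX libraries below all sham libraries. Tlr4 (0.01), Bsg (0.13), Cd33 (0.25), Fpr1 (-0.30) and Fpr2 (-0.04) did not pass.

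Among genes of the annexin A2 and S100A10 complex and the plasmin system, 10 of 11 were tested, 7 had a log2 fold change above 0, and 4 were higher (11.5% of all genes) and 0 lower (10.1%) with the block at an edgeR adjusted p under 0.05. The tissue plasminogen activator gene Plat was at 64.9, 66.0 and 52.4 CPM in the sham libraries and 94.5, 94.3 and 85.9 CPM in the PNX libraries (log2 fold change 0.62, SE 0.091, edgeR adjusted p = 0.00386). The urokinase gene Plau was at 23.0, 21.7 and 25.6 CPM in the sham libraries and 29.8, 30.02 and 35.0 CPM in the PNX libraries (0.43, SE 0.088, edgeR adjusted p = 0.0141). For both, the groups did not overlap. Cd63, a tetraspanin of late endosomes and of the storage granules of ECs, was at 118, 117 and 124 CPM in the sham libraries and 216, 215 and 185 CPM in the PNX libraries (0.73, SE 0.094, edgeR adjusted p = 0.00222). Serpinb2, an inhibitor of plasminogen activators, was at 2.92, 2.85 and 11.05 CPM in the sham libraries and 45.6, 45.05 and 24.3 CPM in the PNX libraries (2.62, SE 0.58, edgeR adjusted p = 0.0188), a ratio of 15.5 in the earlier deposit and 2.25 in the later. The S100A10 binder Ahnak was at 537, 549 and 536 CPM in the sham libraries and 406, 395 and 446 CPM in the PNX libraries, a log2 fold change of -0.35 (SE 0.11, edgeR adjusted p = 0.0538). Plaur, Dysf, Vwf and Selp did not pass, and plasminogen itself (Plg) was at 0.0152 to 0.178 CPM and was not tested.

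Of 7 targets of S100 proteins, all tested, 6 had a log2 fold change above 0 and 1 was higher with the block at an edgeR adjusted p under 0.05, a share near the 11.5% of all genes higher in that fit. Tpm4, a tropomyosin, was at 429, 428 and 312 CPM in the sham libraries and 629.8, 636.5 and 465 CPM in the PNX libraries (log2 fold change 0.57, SE 0.097, edgeR adjusted p = 0.00703), without overlap. The myosin heavy chain Myh9, the main partner of S100A4, was at 0.15, the S100A6 binder Cacybp at 0.21, and Tpm1 at 0.33 with the block, and none of the 3 passed.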

How the data were processed

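RNA of CD31-bead-isolated mouse lung ECs was sequenced in 6 libraries (sham and PNX day 7, 3 each). Per the study's methods the libraries were stranded mRNA and the reads were aligned to mm10, and the submitters' processing notes name STAR. The sources used here do not name the counter, the annotation release or the strand setting. The authors deposited whole-number counts of 33068 transcripts per library, unnormalised, beside TPM, which the authors scaled by transcript length and library. Deposited TPM entered no test and served for levels between genes.

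Counts were summed per symbol. A gene's transcripts may share reads, so these totals are not numbers of fragments. Replicates 1 and 2 of each group were summed to 1 sample. The 4 samples were compared by the quasi-likelihood test of edgeR 4.0.16 under R 4.3.3 (TMM, filterByExpr, Benjamini-Hochberg over all genes tested), without a block. The standard error is the log2 fold change divided by the square root of F. The labels name no deposit or pairing, and the pairing of the groups by deposit is inferred from the re-used mark on replicates 1 and 2. Later minus earlier log2 CPM in sham tracked that in PNX over 12015 genes (r = 0.780 by Pearson, 0.776 by Spearman). Genes of the same libraries do not count as separate samples in this correlation. A fit with the inferred deposit as a block is therefore given beside the fit without a block. DESeq2 1.42.0 and limma 3.58.1 (voom), the 6 libraries, other scalings, no filter, the transcript with the highest total and leaving out each library were alternatives. Fits on 6 libraries count the nearly identical replicates 1 and 2 as separate samples, so their p-values may be too small. The block combined with another tool, scaling or left-out library, and the threshold of 0.05 in the blocked, 6-library and DESeq2 fits, were chosen after seeing the data. The fits were tested on simulated data. Nothing says that libraries came from separate surgeries, so p-values measure the spread between these samples. Exact intervals (Clopper-Pearson, 95%) cover counting error only. Positions are from GENCODE vM21.

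The 10 members, the lists of genes (families, receptors, partners and plasmin system, targets, cell type markers) and the tests were chosen with earlier results of these data known. All members were named, with every tested gene of the families and any gene of the receptor, partner and target lists, the sums, lowest and most abundant genes of the marker lists, and the 3 genes with a mean count of at least 50 most like S100a8, S100a9, S100a10 and Anxa2. Camp, Ngp, Mpo, Prtn3, Mmp8, Retnlg, Trem1 and Cxcr2 were named after their values were seen. The values of 1 gene of the partner and plasmin list are not reported here.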

Additional observations from a re-analysis of the deposited data

Results flagged for a closer look

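The PNX over sham ratio of S100a8 was 1.09 in the earlier deposit and 0.715 in the later, and that of S100a9 was 1.1 and 0.753, each on opposite sides of 1 with counting intervals that leave out 1. S100a16, an S100 gene outside the 10, was at 0.972 in the earlier deposit and 1.09 in the later. The difference between deposits was not tested, since each group has 1 sample per deposit, and 24.7% of all genes pointed in opposite directions in the deposits.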

How the results depend on the processing

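Depth did not limit these genes, which had at least 1025 counts in a library. The limits were 2 samples per group and the deposits. With the replicate block the genes called at the study's thresholds went from 0 to 849, with RLE scaling and the block 624, with library size alone and the block 629, with DESeq2 and the block 816 and with limma-voom and the block 921. Without the block it was 409 with 6 libraries, 587 with DESeq2 on 4 samples and 927 with DESeq2 on 6 libraries, and 1104 with 6 libraries and the block. Leaving out 1 library gave 0 to 2 without the block (2 without PNX replicate 3, Cd5l and Saa3, both higher) and, with it, 671 and 668 when sham replicate 1 or 2 was left out and 485 and 863 when PNX replicate 1 or 2 was left out. An arm left with 1 sample is assumed to vary like the other. Limma-voom on 4 samples and the other scalings and filters without the block gave 0.

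At adjusted p under 0.05 with any fold change, the count over all genes went from 0 to 3584 with the block, 2148 with 6 libraries and 3469 with DESeq2 on 6 libraries. For the 10 members it was 7, 4 and 4, for both families 7, 5 and 6, and for receptors, partners and targets 7, 5 and 8. At the study's thresholds the members stayed at 0 in every alternative run. DESeq2 with the block called 1 family gene, S100g, and the receptor, partner and target lists gave 1, Serpinb2, with 6 libraries and the block, with DESeq2 on the 4 samples and on the 6 libraries, and with limma-voom and the block. Without PNX replicate 1 the blocked test passed 6 members in place of 7 (S100a4, adjusted p = 0.0503). Beyond the 7 members that passed at 0.05 with the replicate block, pairing by deposit changed no call of a member.

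Without sham replicate 3 the log2 fold changes of S100a8, S100a9 and Anxa3 turned to 0.56, 0.78 and -0.12, and without PNX replicate 3 that of Anxa8 turned to -0.0865. Over the libraries left out in turn they ranged from -0.71 to 0.56 for S100a8, -0.90 to 0.78 for S100a9, -0.12 to 0.25 for Anxa3 and -0.0865 to 1.49 for Anxa8. Within the earlier deposit those of S100a8 and S100a9 were 0.13 and 0.13. No other gene of the 10 changed sign. Scalings moved the median of all genes by less than 0.1. The causes were not tested.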
